A study of Mus musculus with 36 samples.

Results

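Enterocytes are the absorptive cells of the small intestine, and 894 cells carried that name in the authors' deposited cell annotation. They made up 894 of 2614 annotated cells. The members were the cells named enterocyte in that annotation, joined to the count matrices of 2 droplet (10x Genomics Chromium) libraries by set and cell barcode. The data came from the small intestine of wild-type C57BL6/2J mice aged 12 months, given in the labels as separated intestinal cells, and both libraries belonged to this 1 group with no treatment. The labels do not give the number of mice in a library, and they name sorting (FACS) of epithelial populations without saying whether it applied to these libraries. Library 1 held 406 enterocytes and library 2 held 488, and no barcode was shared between the libraries. The other 1720 annotated cells were 694 progenitors, 355 goblet cells, 228 secretory progenitors, 158 Paneth cells, 158 intestinal stem cells, 80 enteroendocrine cells and 47 tuft cells. Pairs of values are given throughout as library 1 and then library 2.

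Enterocytes arise from dividing crypt progenitors, move up the villus and are shed at its tip. Their apical membrane is folded into a brush border that carries disaccharidases, peptidases and nutrient transporters. Inside the cell, absorbed fatty acids are rebuilt into triglyceride and packed with apolipoproteins into chylomicrons. Duodenal and jejunal enterocytes are known for iron, lactose and fat handling, and ileal enterocytes for the uptake of bile acids.

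The share of annotated cells that were enterocytes was 35.5% in library 1 (exact Clopper-Pearson 95% interval 32.7% to 38.3%) and 33.2% in library 2 (30.8% to 35.7%). These intervals cover counting error only, and the annotation leaves out 65 barcodes of library 1 and 6241 of library 2. An enterocyte held a median of 15163.5 unique molecular identifiers (UMIs, each a counted RNA molecule) in library 1 and 24697.5 in library 2. The range was 8339 to 28436 in library 1 and 1321 to 123452 in library 2. The summed enterocytes gave 6387752 and 15332200 UMIs, against 17559816 and 32642061 for the other annotated cells. The median number of genes per enterocyte was 3239.5 and 4254.5. After each cell was thinned to 1000 UMIs these medians were 570 and 576. Mitochondrially encoded genes took 7.83% and 11.4% of enterocyte UMIs, against 3.87% and 8.27% in the other cells. The enterocytes of the 2 libraries differed 2-fold in 435 genes that were higher (3.57%) and 351 that were lower (2.88%) in library 2, so values are given for each library. Paneth cells alone supplied 33.4% and 13.6% of the UMIs of the other cells, so each level in the pooled other cells partly depended on them. Levels below are UMIs summed over the cells of a library and scaled to the same total in every sum (CPM). The values are not scaled to transcript length, so each gene is compared with itself between cell types.

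The 4 genes fixed as enterocyte markers carried the name. Fabp1, the liver-type fatty acid-binding protein, was at 19229 and 5988.5 CPM in enterocytes and at 451 and 124 CPM in all other annotated cells. Apoa1, an apolipoprotein of chylomicrons and high-density lipoprotein, was at 5817 and 3239 CPM against 79.2 and 27.8 CPM. Sis, which encodes sucrase-isomaltase, was at 1915.5 and 1799 CPM against 81.2 and 103 CPM. Alpi, the intestinal alkaline phosphatase, stood at 209 and 97.2 CPM against 14.1 and 9.34 CPM. In both libraries all 4 were higher in enterocytes than in any of the 7 other cell types. A UMI of Fabp1 was found in 99.8% and 91.6% of enterocytes, and a UMI of Alpi in 89.4% and 78.3%. Paneth cells, which should lack these genes, had a Fabp1 UMI in 100% and 78.4% of cells and an Alpi UMI in 15.5% and 2.70% at median depths of 73555 and 67245 UMIs. At 1000 UMIs per cell these Fabp1 shares were 93.6% and 61.3% of enterocytes and 15.5% and 6.76% of Paneth cells. In Paneth cells 8 Paneth markers took 497740 and 422850 CPM, which leaves less room for other genes in a thinned cell. Thinned Paneth shares here and below may therefore run low as a background. The level of Fabp1 in enterocytes of library 1 was above that of library 2, and its level in the other cells was ordered the same way. The plot of levels by cell type shows these genes beside markers of the other lineages.

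**Figure D1:**
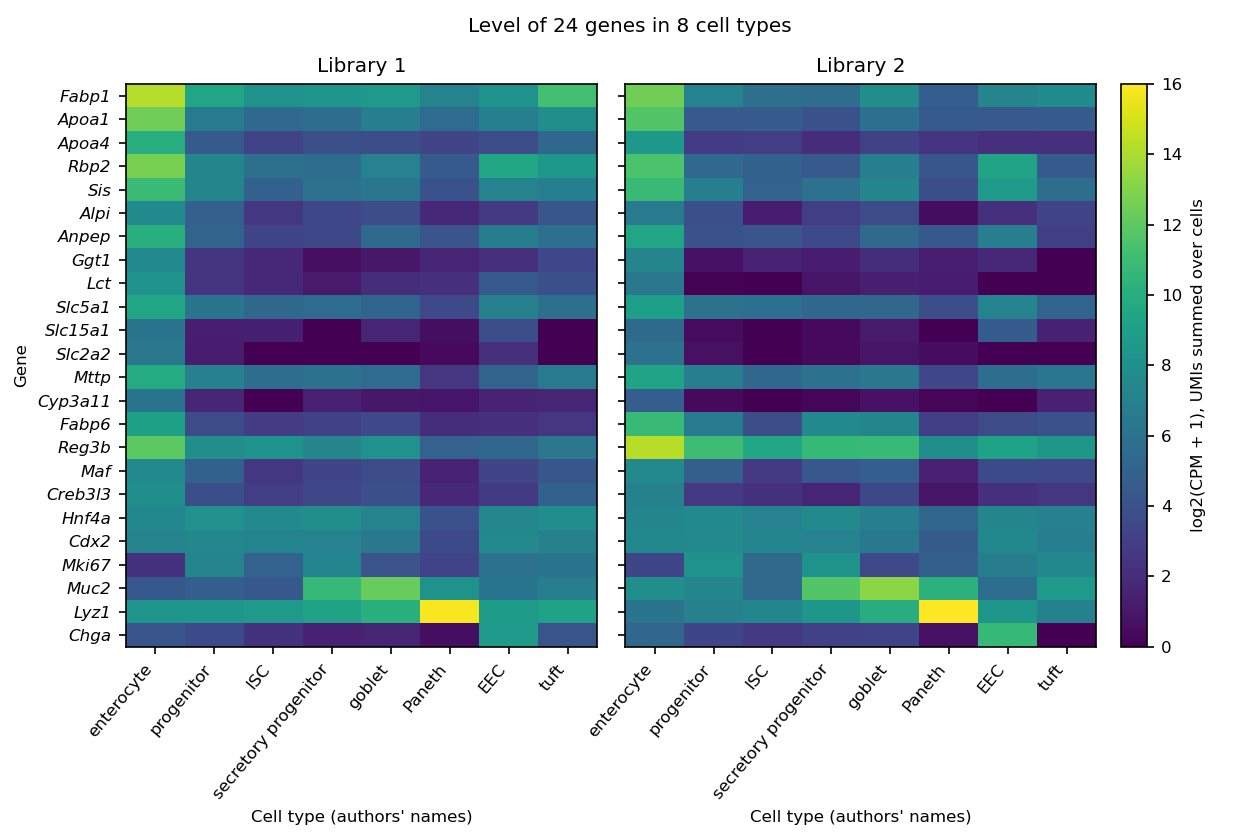
Level of 24 genes (rows) in the 8 annotated cell types (columns) of library 1 (left) and library 2 (right), as log2(CPM + 1) of UMIs summed over the cells of a type, with lighter colour for higher levels. Fabp1 is at 19229 and 5988.5 CPM in enterocytes, Hnf4a and Cdx2 are of like level in most columns, and Mki67, Muc2, Lyz1 and Chga mark dividing, goblet, Paneth and enteroendocrine cells.

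Each gene with at least 10 UMIs over the annotated cells of each library was compared as the log2 ratio of (CPM + 1) in enterocytes to (CPM + 1) in all other annotated cells. A gene is called higher or lower here where the ratio reached 2-fold in both libraries. The authors' cell names come from a clustering of these same cells, so this is a description with no test. Of 12188 genes measured, 1018 were higher in enterocytes (8.35%) and 1528 were lower (12.5%). With library 1 alone 1974 genes were higher and 1819 lower, and with library 2 alone 1039 were higher and 1997 lower. Adding 10 CPM in place of 1 CPM to each value left 589 higher and 396 lower. Against progenitors alone, the nearest cells in the absorptive lineage, 877 genes were higher (7.2%) and 1759 lower (14.4%), and 744 and 1078 of these were also called against all other cells. The median log2 ratio over all genes was 0.04 in library 1 and -0.19 in library 2. Across genes the ratios of the 2 libraries had a Pearson r of 0.945, a value over genes, which are not independent replicates. Of the 1185 genes of at least 100 CPM in enterocytes of both libraries, 305 were higher. That limit is set on the enterocyte level itself and so favours genes high in enterocytes, and the share over all genes was 8.35%. The exact Poisson interval of a level among the 1185 was at most 7.83% wide on either side.

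**Figure D2:**
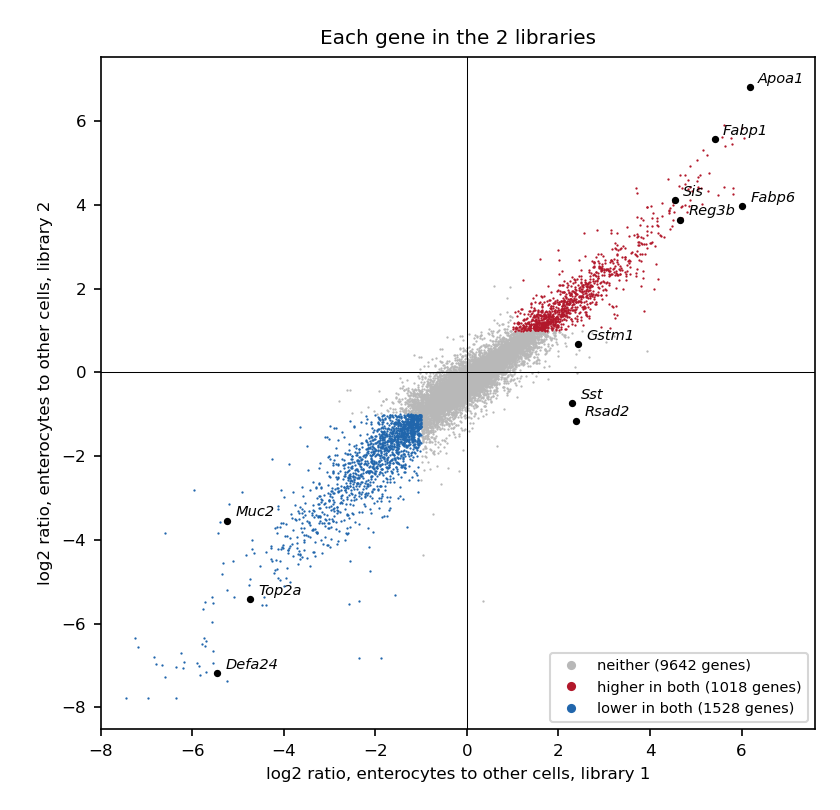
log2 ratio of (CPM + 1) in enterocytes to (CPM + 1) in the other annotated cells for each of 12188 genes, library 1 on the x axis and library 2 on the y axis. Red points are the 1018 genes at least 2-fold higher in both libraries and blue points the 1528 lower; Sst and Rsad2 are above 0 in library 1 and below 0 in library 2.

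The 15 genes with the largest ratio in the less extreme library, at 100 CPM or more, were mostly genes of fat and protein digestion. Apoa1 led with log2 ratios of 6.18 and 6.82. Apoa4, another chylomicron apolipoprotein, was at 1062 and 367 CPM against 15.4 and 5.45 CPM. Rbp2, which binds retinol inside the enterocyte, was at 6617 and 2828.5 CPM against 119 and 63.5 CPM, and enteroendocrine cells held the next highest level, 775 and 636 CPM. Apoc3, a lipoprotein component, was at 1153 and 473 CPM against 31.3 and 10.9 CPM. Surface peptidases followed, among them Anpep (aminopeptidase N) with log2 ratios of 5.29 and 4.76, Mme (neprilysin) with 4.65 and 4.73 and Mep1b (the meprin beta subunit) with 5.03 and 4.58. Ggt1, the gamma-glutamyltransferase that cleaves glutathione outside the cell, had ratios of 5.61 and 5.92, and Dpep1, a membrane dipeptidase, had 5.05 and 4.42. Fabp1, Adh6a, 2010106E10Rik, Creb3l3 and Gda were also among them, with the smaller of each gene's ratios between 4.44 and 5.41. In library 1 the cell type with the next highest level was tuft for 10 of the 15 genes, and in library 2 it was goblet for 10 of the 15. Only 24 and 23 cells were named tuft. By UMI count alone the highest genes were mt-Atp6, mt-Co3, mt-Co1, mt-Co2, Fabp2, Fabp1, Reg3b, mt-Cytb, Fth1 and mt-Nd1, which together took 12.2% and 14.4% of enterocyte UMIs.

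Promoters of the enterocyte genes were searched for the recognition letters of factors known from intestinal epithelium. The sequences are RefSeq promoters of build GRCm38.p6, from 250 bases before to 50 bases after each annotated start. Matched by gene symbol or ID, 787 of the 1018 higher genes had 1049 promoters, some of which overlap. The letters CAAAGTCCA, a form of the site of the nuclear receptor HNF4, were searched on both strands. They were present in 24 of these 1049 promoters (2.29%), in 2 of 1471 promoters of lower genes (0.136%), in 0.526% of promoters of all genes measured and in 0.475% of all 32851 promoters. Among the higher genes of at least 100 CPM they were in 4 of 335 promoters (1.19%). No test of these shares was made. The CDX letters TTTATNG were in 9.34% of the promoters of higher genes, 7.41% of those of lower genes and 6.87% of those of all genes measured. The GATA letters AGATAA were in 9.34%, 6.12% and 6.66% of the same sets. The HNF1 motif was in none of the promoters of measured genes. A match describes the letters in this window and is not shown to be a bound site. The promoters of 4 enterocyte genes with the HNF4 letters are shown, chosen after their values were seen, 2 of them for brush border enzymes (Alpi and Treh), Pdzk1 for a scaffold protein of the apical membrane and Cyp3a11 for a drug-metabolizing cytochrome P450. Capitals mark the HNF4 letters or their reverse complement and, in Alpi, the CDX letters before them. The HNF4 letters begin at -19 from the start site in Alpi (chr1:87101557-87101856, minus strand), at -71 in Treh (chr9:44672983-44673282, plus strand), at 15 in Pdzk1 (chr3:96829815-96830114, plus strand) and at -109 in Cyp3a11 (chr5:145879805-145880104, minus strand).
Alpi: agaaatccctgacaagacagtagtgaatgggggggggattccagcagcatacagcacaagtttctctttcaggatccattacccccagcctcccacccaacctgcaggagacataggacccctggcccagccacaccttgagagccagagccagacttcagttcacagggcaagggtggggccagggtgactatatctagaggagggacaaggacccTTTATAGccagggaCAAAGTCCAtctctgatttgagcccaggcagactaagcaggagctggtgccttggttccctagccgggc
Treh: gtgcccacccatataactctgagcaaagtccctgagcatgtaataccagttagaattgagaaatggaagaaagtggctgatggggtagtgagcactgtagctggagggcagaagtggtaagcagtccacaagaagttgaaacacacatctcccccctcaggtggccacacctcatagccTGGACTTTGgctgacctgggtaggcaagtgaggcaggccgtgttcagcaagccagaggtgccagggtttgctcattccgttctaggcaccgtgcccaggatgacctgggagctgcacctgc
Pdzk1: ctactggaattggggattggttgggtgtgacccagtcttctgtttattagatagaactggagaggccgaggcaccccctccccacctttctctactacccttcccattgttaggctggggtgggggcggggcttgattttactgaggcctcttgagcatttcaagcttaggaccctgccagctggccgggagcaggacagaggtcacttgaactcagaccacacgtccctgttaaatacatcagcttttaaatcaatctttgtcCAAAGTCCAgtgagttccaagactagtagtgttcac
Cyp3a11: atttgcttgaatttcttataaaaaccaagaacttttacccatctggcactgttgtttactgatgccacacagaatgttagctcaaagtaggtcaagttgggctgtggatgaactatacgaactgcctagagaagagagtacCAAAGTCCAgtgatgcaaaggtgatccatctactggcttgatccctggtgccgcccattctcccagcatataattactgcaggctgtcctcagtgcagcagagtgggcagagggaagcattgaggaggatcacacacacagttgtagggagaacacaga
Treh, which encodes the trehalose-splitting enzyme, was at 110.0 and 48.3 CPM in enterocytes against 3.25 and 2.14 CPM in the other cells. Pdzk1 was at 75.6 and 47 CPM against 1.03 and 0.306 CPM and Cyp3a11 at 73.4 and 26.8 CPM against 1.48 and 0.368 CPM. The 2 lower genes with the letters were Tgif1, a transcriptional repressor of TGF-beta signalling, and Wnt3, a Wnt ligand that Paneth cells make.

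Hydrolases and peptidases of the brush border were higher as a group. All 16 members measured were higher than in the other annotated cells, with median log2 ratios of 4.52 and 3.98. Against progenitors alone the same count held, 16 of 16. As a background for this list and those below, 8.35% of all genes measured were higher and 12.5% lower. The shares against progenitors were 7.2% and 14.4%. Lct, the lactase of the brush border, was at 287 and 82.7 CPM against 4.27 and 0.735 CPM. A UMI of Lct was in 70% and 34.8% of enterocytes, against 20.2% and 6.76% of Paneth cells. Mgam, the maltase-glucoamylase, had the smallest ratio in library 2 (2.74 and 1.68) with 668 and 436 CPM in enterocytes. Ace, the angiotensin-converting enzyme, was at 182 and 76.9 CPM against 5.24 and 3.49 CPM. Dpp4 and Enpep, both peptidases of the apical surface, had ratios of 3.07 and 2.47 and of 3.83 and 3.08. Enpp7, a sphingomyelin-splitting enzyme, had too few UMIs to be measured, with 1.25 and 7.37 CPM in enterocytes. The structural proteins that hold up the microvilli were higher by less. Of 12 measured, 11 were higher, with medians of 2.48 and 1.79. Vil1 (villin) was at 738 and 641 CPM against 99.5 and 158 CPM, and Myo1a, the myosin that links microvillus actin to the membrane, was at 569.5 and 564 CPM against 102 and 159 CPM. Ush1c, a scaffold of the links between microvilli, missed the limit in library 2 with ratios of 1.46 and 0.89.

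Sugar and amino acid transport genes were higher in enterocytes. All 7 measured genes of sugar transport and fructose metabolism were higher (medians 3.41 and 3.02). Slc5a1 (SGLT1), the sodium-coupled glucose and galactose carrier of the apical membrane, was at 698 and 512 CPM against 44.6 and 48.3 CPM. Slc2a2 (GLUT2), the glucose carrier of the basolateral side, was at 82.8 and 64.7 CPM against 0.683 and 0.551 CPM. Khk, an enzyme of fructose breakdown, had ratios of 3.01 and 2.61. Of 12 amino acid and peptide transport genes measured, 11 were higher (medians 2.92 and 2.33). Slc15a1 (PEPT1), the di- and tripeptide carrier, was at 69.8 and 44.4 CPM against 1.42 and 1.1 CPM, and Slc6a19, the carrier of neutral amino acids, was at 120.2 and 73 CPM against 4.73 and 4.14 CPM. Slc3a2 and Slc7a7, which pair in a basolateral exchanger, had ratios of 2.22 and 1.53 and of 2.95 and 2.32. Slc1a1, a glutamate carrier, was at 35.5 and 65.2 CPM against 28 and 37 CPM and was not higher, and against progenitors its ratios were -0.78 and 0.10.

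Genes of fat absorption summed to 49905 and 21975 CPM in enterocytes and to 2159 and 1882 CPM in the other cells. Of 21 measured, 20 were higher and 1 was lower (medians 3.85 and 3.03). Fabp2, the intestinal fatty acid-binding protein, was at 17533 and 7892 CPM against 1009.5 and 965 CPM. The enzymes that rebuild triglyceride were higher, with Mogat2 at 384 and 315 CPM and Dgat1 at 669.7 and 603 CPM against 22.7 and 30.1 and 104 and 128 CPM. Mttp, which loads lipid onto apolipoprotein B, was at 928 and 659 CPM against 63 and 77.9 CPM, and Apob itself was at 533 and 425 CPM against 23.6 and 38.6 CPM. Cd36, a fatty acid receptor, was at 49.9 and 20.2 CPM against 1.59 and 1.23 CPM. Plin2, a lipid droplet coat protein, had ratios of 1.70 and 1.01, the second close to the limit, and against progenitors it was not higher (0.96 and 0.54). The exception was Acsl3, an acyl-CoA synthetase, at 3.29 and 5.09 CPM against 10.3 and 16 CPM. Its relative Acsl5, the acyl-CoA synthetase of the same list, was at 559.7 and 429.6 CPM against 75.2 and 75.5 CPM.

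Of 11 cholesterol and bile acid genes measured, 10 were higher (medians 2.99 and 2.48). Npc1l1, the cholesterol uptake protein, was at 187 and 209.8 CPM against 21.3 and 36.9 CPM. Abcg5 and Abcg8, which together return sterols to the lumen, had ratios of 2.99 and 2.40 and of 2.80 and 2.33. Slc51a and Slc51b, the paired subunits of the basolateral bile acid exporter, were at 271 and 368 CPM and at 194 and 221 CPM in enterocytes. Slc10a2, the apical bile acid carrier of the ileum, was at only 2.35 and 7.11 CPM. Scarb1, a lipoprotein receptor, had few UMIs in enterocytes and was not called, at 0.626 and 0.0652 CPM against 1.99 and 1.68 CPM. Genes of fatty acid oxidation and ketone body synthesis were split, with 6 of 14 higher (medians 1.65 and 0.94) and 2 of 14 against progenitors. The shares of all genes were 8.35% and 7.2%. Ehhadh, an enzyme of peroxisomal oxidation, was at 66.1 and 35.2 CPM against 12.4 and 12 CPM. Cpt1a, the gate of mitochondrial fatty acid entry, was at 71.5 and 65.1 CPM against 61.8 and 66.3 CPM.

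Vitamin, iron and calcium genes were mixed: 6 of 13 were higher and 1 was lower (medians 1.04 and 0.94). Of all genes, 8.35% were higher and 12.5% lower. Rbp2 and Rdh7, both of retinol handling, had ratios of 5.78 and 5.46 and of 3.94 and 3.96. Heph (hephaestin), the oxidase that accompanies iron export, was at 94.6 and 77.2 CPM against 10.9 and 18.7 CPM, and Slc11a2 (DMT1), the apical iron carrier, was at 27.9 and 26.5 CPM against 9.23 and 10.5 CPM. Cybrd1, the ferric reductase of the duodenum, had no UMI in enterocytes of either library, so it was at least 3.15-fold and 5.17-fold lower than in the other cells, taking 3 counts per library as the limit that a count of 0 allows. Slc40a1 (ferroportin) was at 2.5 and 5.28 CPM, and Trpv6, the calcium channel, had no UMI in any annotated cell. Drug and xenobiotic metabolism genes were higher in 16 of 18 measured (medians 3.30 and 2.73). Ces2e, a carboxylesterase, was at 1015 and 688 CPM against 103 and 90.2 CPM, and Cyp3a25, a cytochrome P450, was at 117 and 65.2 CPM against 2.45 and 1.53 CPM. Gsta1, a glutathione transferase, was at 972 and 311 CPM against 26.9 and 18.1 CPM. The Cyp3a, Ces2 and Gst genes lie in families of close copies, so a split of reads between copies makes single values uncertain.

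**Figure D3:**
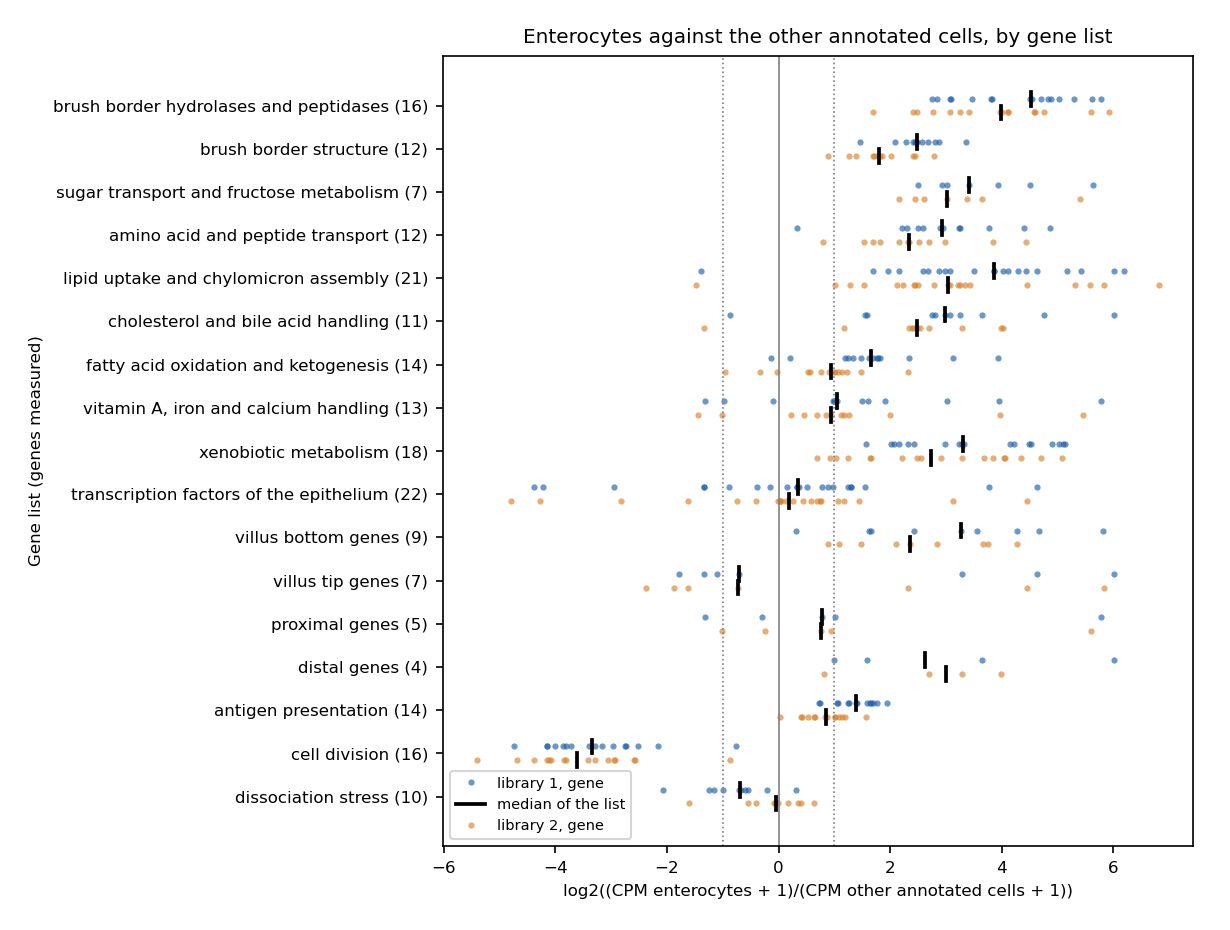
log2 ratio of (CPM + 1) in enterocytes to (CPM + 1) in the other annotated cells (x axis) for the genes of 17 lists (y axis, with the number of genes measured), library 1 in blue and library 2 in orange, with a black bar at the median of each list and dotted lines at 2-fold. All 16 hydrolases lie right of the dotted line in both libraries, cell division genes lie left of 0, and the villus tip genes fall into a high and a low group.

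Of 22 transcription factors of the intestinal epithelium measured, 4 were higher, 4 lower and 14 neither. Over all genes measured, 8.35% were higher and 12.5% lower, so most genes were neither. Hnf4a was at 179 and 158 CPM in enterocytes and at 161 and 155 CPM in the other cells, and Cdx2 at 145 and 177 CPM against 102 and 130.3 CPM. Hnf4g, the paralog of Hnf4a, was at 86.3 and 198 CPM against 46.3 and 71.8 CPM, past 2-fold in library 2 only. The 4 higher factors were Maf, Creb3l3, Nr1h4 and Ppara. Maf was at 204 and 184 CPM against 14.1 and 20.2 CPM, and Creb3l3, which drives apolipoprotein genes, at 253 and 131 CPM against 9.28 and 4.99 CPM. Nr1h4 (FXR), the bile acid receptor, had ratios of 1.54 and 1.17. Atoh1 and Spdef, factors of the secretory lineage, were at 0.783 and 1.24 CPM and at 0.47 and 2.09 CPM in enterocytes. Sox9, a factor of crypt cells, was at 5.01 and 7.04 CPM against 45.6 and 56.2 CPM. Klf4 was lower than in the pooled other cells (23.5 and 44.2 against 60.6 and 138 CPM), and against progenitors alone its ratios were 1.42 and 0.84.

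Division genes were low. Of 16 measured, none was higher and 15 were lower (medians -3.35 and -3.61). Mki67 was at 3.76 and 9.33 CPM against 75.9 and 178 CPM, and Top2a, a topoisomerase of dividing cells, at 3.76 and 4.3 CPM against 126 and 224 CPM. Pcna was the exception, at 15.8 and 7.96 CPM against 27.5 and 15.4 CPM. An Mki67 UMI was found in 5.17% and 14.5% of enterocytes as deposited and in 0.246% and 0.82% at 1000 UMIs per cell. Antigen presentation genes were of intermediate standing, with 6 of 14 higher (medians 1.40 and 0.85) and 1 of 14 against progenitors. The latter count was near the share of all genes higher than in progenitors, 7.2%. Cd74, the invariant chain of class II molecules, was at 2312 and 1693 CPM against 717 and 838 CPM, and H2-Ab1 at 731 and 410.2 CPM against 190.5 and 186 CPM. B2m, the light chain of class I molecules, was at 1911 and 722 CPM against 726 and 394 CPM and was not called. Genes that respond to cell dissociation gave no higher call among 10 and 1 lower, Fosb. These counts were near the shares over all genes, 8.35% higher and 12.5% lower. The log2 ratios of Fosb to progenitors alone were 0.89 and 0.91. Against progenitors 1 of the 10 was higher, with medians of -0.26 and 0.80.

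Enterocytes change their expression along the villus, and lists of genes known from its bottom and tip were set against these cells. The antimicrobial and immune genes of the villus bottom were higher in 8 of 9. Reg3b, a C-type lectin that binds bacteria, was at 4043 and 19807 CPM against 159 and 1571 CPM. Reg3g, its relative, was at 2804 and 8755.5 CPM against 288 and 1229 CPM, and Ccl25, a chemokine that draws lymphocytes to the small intestine, at 1285 and 1239.5 CPM against 239 and 288 CPM. Il18, an epithelial cytokine, was at 137 and 232 CPM against 6.21 and 16.4 CPM. Gsdmc2, a gasdermin, was not called, at 20 and 40.9 CPM against 15.9 and 21.7 CPM. Reg3a, Reg3b and Reg3g are close relatives, so a share of their reads could be assigned to the wrong copy. Of the 9 tip genes, 7 were measured, 3 of them higher (Apoa4, Creb3l3 and Krt20) and 2 lower (Klf4 and Enpp3). Krt20, a keratin of mature villus cells, was at 626 and 480.4 CPM against 63 and 95.1 CPM. The tip genes of purine handling were at or near 0 in enterocytes. Ada, adenosine deaminase, was at 1.1 and 0.652 CPM, Nt5e at 0.157 and 0.326 CPM, and Slc28a2, a nucleoside carrier, had 0 and 1 UMI. An Ada UMI was in 1.72% and 2.05% of enterocytes and in 1.19% and 9.46% of Paneth cells, and one of Slc28a2 in 0 of 406 and 1 of 488. At least 1 UMI of a bottom gene was present in 100% of enterocytes of both libraries, and of a tip gene in 99.3% and 98.8%. At 1000 UMIs per cell the tip share was 68.2% and 52.7%. Shares of these summed lists were not taken in Paneth cells. In library 1 Lypd8, another bottom gene, was found in 97.6% of Paneth cells. At 1000 UMIs it was in 17.9% of them and in 85.7% of enterocytes. Krt20 alone was in 97.8% of library 1 enterocytes and 27.4% of Paneth cells, so the tip share there does not stand for the whole list.

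Single enterocytes differed widely in these genes. Apoa4 was found in 81.5% and 59.6% of enterocytes and in 40.5% and 24.3% of Paneth cells, and at 1000 UMIs per cell in 36.2% and 18.9% against 1.19% and 1.35%. In enterocytes it had a median of 253 and 38.9 CPM per cell and a 90th percentile of 3389.9 and 1262 CPM. Fabp1 ran from a 10th percentile of 1502 and 39.2 CPM to a 90th of 44162 and 21335 CPM. The cells' median Fabp1 was 14827 and 1805 CPM, so the typical enterocyte of library 2 held less of it than that of library 1. Ccl25 varied little in comparison, from 798 and 804 CPM at the 10th percentile to 1869 and 1652 CPM at the 90th.

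To compare cells of different depth, each enterocyte was thinned to 5000 UMIs, which kept 406 and 479 cells. Spearman correlations over these cells are given as descriptions, since cells of a library share its preparation and a fixed total forces some genes down when others are up. The 10 genes most like Apoa4, by the lower of the 2 libraries' correlations among 4089 genes found in at least 10% of cells, included Fabp1, Rbp2, Fabp2, Apoa1, Apoc3, Leap2, Slc5a1, Acsl5 and Sis. Rbp2 correlated with Apoa4 at 0.80 and 0.68, and Sis at 0.60 and 0.57. At the other end, 16 of the 20 most opposed genes encoded cytosolic ribosomal proteins, and Rpl32 had -0.75 and -0.60. The 78 ribosomal protein genes had a median of -0.69 and -0.53, where the median over all genes was within 0.02 of 0 in both. The summed fat absorption genes and the summed ribosomal genes correlated at -0.92 and -0.82. Fat absorption genes took a median of 3.64% and 0.90% of a cell's UMIs and ribosomal genes 16.6% and 16.4%. The ribosomal share ran from 4.72% and 4.29% at the 10th percentile to 27.6% and 21.2% at the 90th. Summed bottom and tip genes were not opposed to each other in these cells and correlated at 0.40 and 0.40. These sums follow a few abundant genes. Over all enterocytes, Apoa4 (1062 and 367 CPM) and Krt20 made up most of the 1969 and 1030 CPM of the measured tip genes. Reg3b alone was 4043 and 19807 of the 13330 and 35240 CPM of the bottom genes. The correlation therefore does not describe the 2 lists gene by gene. Reg3b correlated most with Reg3g (0.53 and 0.79) and Spink1 (0.49 and 0.56), and with Apoa4 at 0.29 and 0.31. The 10 genes most like Reg3b also included Anpep (0.45 and 0.44), Apoa1 (0.44 and 0.53) and Sis (0.41 and 0.55). Mep1b (0.41 and 0.54) and Fabp2 (0.41 and 0.41) were among them too. All of the 20 genes most opposed to Reg3b encoded cytosolic ribosomal proteins.

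Fabp6, the ileal bile acid-binding protein, was spread unevenly over enterocytes. A UMI was found in 12.3% and 38.1% of them and in 21.4% and 32.4% of the deeper Paneth cells, so in library 1 this share was below that background. At 1000 UMIs per cell the shares were 2.71% and 16.6% of enterocytes and 1.19% and 1.35% of Paneth cells. Its summed level was 565 and 1777 CPM against 7.75 and 111 CPM in the other cells. In library 1 a single cell held 36.9% of all Fabp6 UMIs and the 10 highest cells 97.9%, so its level there rests on few cells. In library 2 the highest cell held 9.42%. Among cells thinned to 5000 UMIs, 9 and 57 had at least 10 Fabp6 UMIs, a limit chosen after the values were seen. Their Fabp1 counts had a median of 8 and 0 and a highest value of 25 and 42, while the remaining cells had medians of 79 and 12 and highest values of 412 and 262. By these medians cells rich in Fabp6 were low in Fabp1 in both libraries. In library 2 some of them, up to 42, lay above the median of 12 of the remaining cells. In library 2 the correlation of Fabp6 was -0.48 with Fabp1 and -0.38 with Rbp2, and Krt8 (0.38), Guca2a (0.34) and Mgat4c (0.34) were most like it. Of 5 genes listed as proximal and measured, Lct was higher and Cybrd1 lower, while Gata4 was at 50.3 and 40.2 CPM against 29 and 23.4 CPM and Onecut2 at 31.5 and 31.6 CPM against 38.9 and 37.6 CPM. Of 4 distal genes, Fabp6, Slc10a2 and Slc51a were higher, and Osr2 was at 82.8 and 86.2 CPM against 40.9 and 48.5 CPM.

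**Figure D4:**
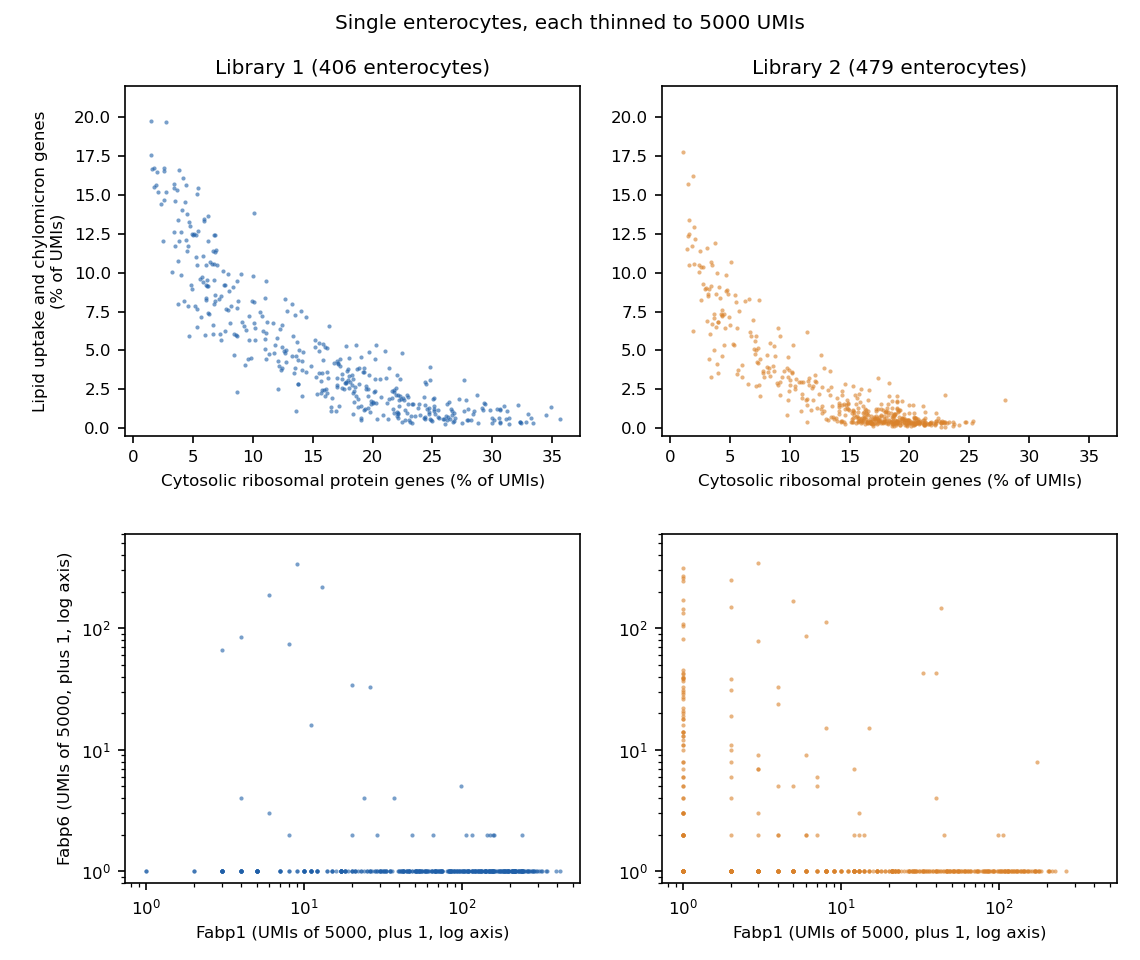
Single enterocytes thinned to 5000 UMIs, 406 of library 1 (left, blue) and 479 of library 2 (right, orange), 1 point per cell. Upper panels give the percentage of UMIs in the fat absorption list against that in ribosomal protein genes, where cells high in the former are low in the latter (-0.92 and -0.82, Spearman); lower panels give Fabp6 against Fabp1 on log axes, where cells with 10 or more Fabp6 UMIs have at most 25 and 42 Fabp1 UMIs.

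The 2 libraries differed in enterocytes although both carry the same labels. Beside the 435 higher and 351 lower genes of library 2 in enterocytes, 8.1% of genes were higher and 1.53% lower in the other cells. TMM scaling gives the enterocyte sum and the other-cell sum of each library separate factors. With it the enterocyte counts were 314 and 443, so the balance of directions rests on the scaling. With 10 CPM added to each value they were 91 and 153. Reg3b was at 4043 and 19807 CPM, a log2 difference of 2.29, and in the other cells its difference was 3.30. Fabp1 differed by -1.68 in enterocytes and by -1.85 in the other cells, and Lct by -1.78 and -1.60. These genes were shifted in the same direction inside and outside the enterocytes. Gstm3, a glutathione transferase, went from 620.4 to 84.1 CPM, and Gstm1, its relative, differed by -2.21 against -0.48 in the other cells. Rps18 and the ribosomal copy Rpl23a-ps3 differed by -3.67 and by -3.88 in enterocytes, and by -3.56 and -3.98 in the other cells, so the other cells of library 2 were low in them too. Gm42418 and Lars2 were higher in library 2 in enterocytes (2.51 and 2.45) and elsewhere (2.60 and 2.57). The software that made each matrix is not given in the sources used here for library 1, so counting, preparation and animal cannot be told apart.

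**Figure D5:**
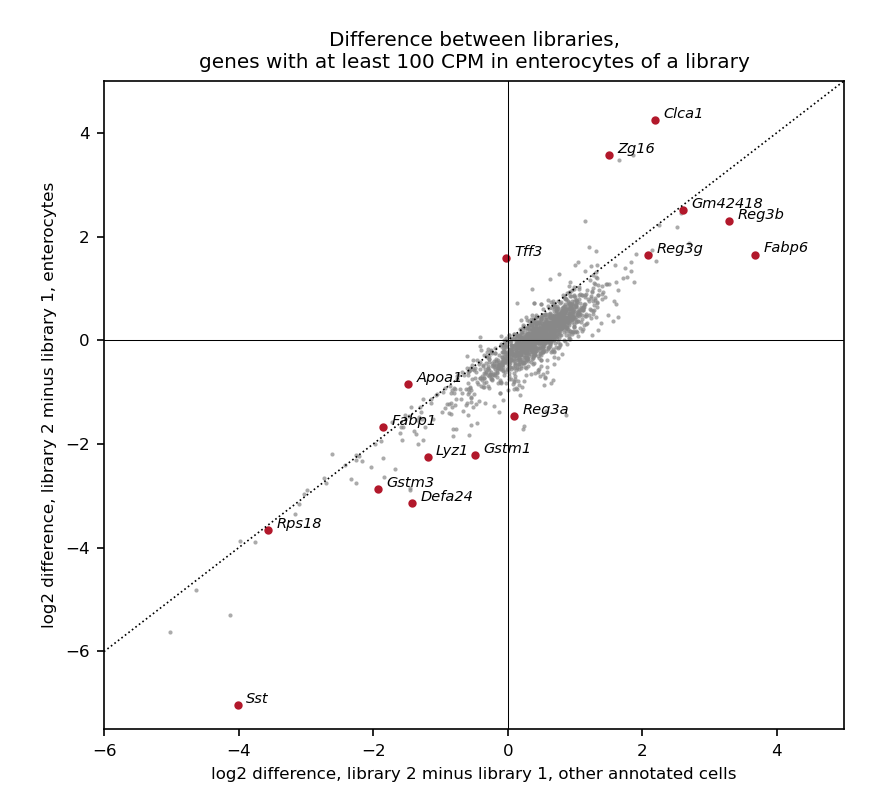
log2 difference in (CPM + 1), library 2 minus library 1, in the other annotated cells (x axis) and in enterocytes (y axis), for 1530 genes of at least 100 CPM in enterocytes of a library, with a dotted line of equal difference. Rps18, Gm42418 and Fabp1 lie near the line, Reg3b lies below it at 3.30 and 2.29, and the goblet genes Clca1, Zg16 and Tff3 lie above it.

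Markers of other cell types were present at low levels in enterocytes and differed between the libraries. The 8 Paneth markers measured summed to 3192 and 447 CPM in enterocytes, against 497740 and 422850 CPM in Paneth cells. Defa24, a Paneth defensin, was found in 100% and 99.2% of enterocytes and at 1000 UMIs per cell in 89.7% and 26.8%. The 7 goblet markers summed to 637 and 3297 CPM, against 172260 and 167460 CPM in goblet cells. In library 2 the median enterocyte had 321 CPM of them but the highest had 258450 CPM, and 3 cells lay above the lower quartile of goblet cells. Muc2 differed between libraries by 3.57 and Zg16 by 3.57. Without the 10 enterocytes of each library with most goblet UMIs these differences were 0.58 and 0.39, and Reg3b was at 2.28, close to its value with them. Stem cell markers summed to 21.9 and 29.6 CPM with Lgr5 at 0.157 and 0.196 CPM. Tuft markers summed to 3.91 and 10.1 CPM, with Il25 at 0 in both. Of the stromal genes, the collagen gene Col3a1 and Dcn (decorin) had no UMI in enterocytes of either library, while the collagen genes Col1a1 and Col1a2 had 0 UMIs in library 1 and 2 and 1 UMIs in library 2. Pecam1, an endothelial gene, was at 17.5 and 0.652 CPM. Leukocyte markers summed to 204 and 110 CPM, of which Ccl5 was 134 and 66.1 CPM, while Ptprc (CD45) was at 1.72 and 1.89 CPM. The 10 highest cells held 56.8% and 86.9% of Ccl5 UMIs. The globin genes summed to 38.7 and 0.261 CPM in enterocytes and to 811 and 0.123 CPM in the other cells. The part of these counts in the values above was not tested.

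Enteroendocrine markers summed to 125 and 60.1 CPM. Sst, the somatostatin gene, is not among the markers in that sum and was at 139.8 and 0.0652 CPM, and 99.2% of its UMIs in library 1 came from 1 cell. Gip, an incretin hormone, was in 36% and 10.2% of enterocytes and in 82.1% and 31.1% of Paneth cells. Chga (chromogranin A) was in 16.5% and 51.4% of enterocytes and in 3.57% and 4.05% of Paneth cells, although the latter had more UMIs per cell. At 1000 UMIs per cell the Chga shares were 0.739% and 3.89% of enterocytes and 0% and 0% of Paneth cells. Its level was 17.7 and 38.4 CPM in enterocytes and 17.3 and 49.5 CPM in the other cells, enteroendocrine cells included. In library 2 the highest enterocyte held 3.57% of Chga UMIs, so this count did not rest on a few cells there, and in library 1 the highest held 21.2%. Genes lower in enterocytes were led by Paneth products. Lyz1 (lysozyme) was at 338 and 70.6 CPM against 20305 and 8876 CPM, and Clps (colipase) at 16.3 and 3.33 CPM against 1759 and 549.9 CPM. Against progenitors alone the log2 ratios were 0.01 and -0.81 for Lyz1 and -0.22 and -0.56 for Clps. Of the 8 Paneth markers measured, 0 were lower than in progenitors (medians -0.04 and -1.09), where 14.4% of all genes were. These low ratios thus rest on the Paneth cells in the pooled other cells. The 10 genes with the most negative ratios included Clps and defensin or defensin-like genes (Gm14851, Defa21, Defa22, Gm15299, Defa23, Gm15292, AY761184 and Gm15315), and the defensins are near-identical copies whose single values are uncertain. Leaving Paneth cells out of the other cells gave 1969 lower genes, of which 1470 were among the 1528, and 830 higher genes.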

How the data were processed

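Droplet single-cell libraries of 12-month wild-type mouse small intestine were analysed. The authors deposited 2 matrices of UMI counts per gene and barcode and a table of cell names. Per the file headers, library 2 was made with software version 3.0.1; the software of library 1 is not given in the sources used here. Per the submitters' processing notes the build was mm9; the matrices carry gene IDs and symbols but no positions. The members, gene lists and comparisons were chosen with earlier results of these data known.

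UMIs were summed per library and cell type and scaled to CPM (Python 3.11.15, numpy 2.4.6, pandas 2.3.3). Genes with at least 10 UMIs over annotated cells of each library were kept, 12188 of 27998. Ratios are log2 of (CPM + 1), which understates the change of low genes, and 2-fold in both libraries was the limit. The script was tested on simulated data. Genes were named by rule: the 10 highest by CPM, the 15 with the largest and the 10 with the most negative ratio at 100 CPM or more, up to 5 of the highest members per list and every member against its list's direction, the 8 largest differences each way between libraries, and all cell type markers; further list members are named beside them, chosen after their values were seen. Some genes that these rules pick are not reported here. Poisson and Clopper-Pearson intervals (95%, scipy 1.17.1) cover counting error only. TMM factors came from edgeR 4.0.16, with no count test. No doublet caller was run. The small RNA libraries of the series were not used here. Alternatives tried were another pseudocount, filter, fold limit, scaling, weighting of cells, reference cells and depth of enterocytes, and each library alone. With 2 libraries of 1 group, nothing was tested, and spread between animals is unknown.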

Additional observations from a re-analysis of the deposited data

Results flagged for a closer look

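Barcodes that the annotation leaves unnamed were used in no comparison, yet they carried enterocyte markers. In library 1 the 65 unnamed barcodes had Alpi, Apoa1, Fabp1 and Sis at a summed 6373 CPM, against 27171 CPM in the named enterocytes, and 9 of them reached the median enterocyte's level. In library 2 the 6241 unnamed barcodes had 6149 CPM, against 11124 CPM in the named enterocytes, and 654 reached that median. The named cells other than enterocytes had 625 and 265 CPM. The median unnamed barcode had only 413 and 676 CPM, against 21382 and 4524 CPM in the median enterocyte, so a minority of barcodes carried the sums. The unnamed barcodes had a median mitochondrial share of 15.6% in library 1 and 70.2% in library 2, against 7.67% and 11.3% in the enterocytes. Their median depth was 11041 and 1738 UMIs.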

How the results depend on the processing

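No paired analysis was possible because the values come from no test; each ratio of enterocytes to other cells was already taken within 1 library. With 10 CPM added in place of 1 CPM, 589 genes were higher and 396 lower in enterocytes, and 91 were higher and 153 lower in library 2 than in library 1. At 4-fold these counts were 321, 528, 35 and 79. With either library left out, 1039 to 1974 genes were higher and 1819 to 1997 lower. The other alternatives kept these counts within 1.5 times, and the number of lists with a median of 2-fold or more in both libraries stayed at 10 or 11. The median log2 ratio of all genes was 0.04 and -0.19, and it was -0.08 and -0.06 with TMM scaling and -0.35 and -0.30 with Paneth cells left out of the other cells. Thinning to 1000 UMIs lowered the genes per enterocyte to 570 and 576 and the share with a tip gene UMI to 68.2% and 52.7%; the share with a bottom gene UMI was 99.0% in library 1. Against progenitors alone the mean log2 ratio of 18 genes turned positive: Avil (0.14), Cck (0.18), Chgb (0.32), Clca1 (1.08), Dclk1 (0.37), Enpp3 (0.14), Fosb (0.90), Gcg (0.19), Gip (0.22), Klf4 (1.13), Lyz2 (0.18), Muc2 (0.14), Neurod1 (0.45), Sct (1.56), Sh2d6 (0.30), Trpm5 (0.32), Vim (0.34), Zg16 (1.35). Some of these means join unlike libraries: the ratios to progenitors were -0.37 and 0.65 for Muc2 and 0.13 and 2.57 for Zg16. Several rest on very few UMIs, so their sign is uncertain. In library 1 the enterocytes held 0 UMIs of Enpp3, 1 of Dclk1, 4 of Lyz2, 5 of Avil and 5 of Neurod1. Others had more, such as Klf4 with 150 and Gip with 181. Without the 10 enterocytes of each library richest in goblet UMIs, the Zg16 difference between libraries fell from 3.57 to 0.39. In library 1 a single enterocyte held 82.4% of Chgb UMIs. Of the other values of named genes under the alternatives, 2147 stayed within 1 SD of the 2 libraries and 477 moved beyond it. The 2147 include values that could not move by this measure. The value of each library alone always lies within that SD of their mean, and another filter on counts leaves a ratio unchanged. The 2147 are therefore no measure of stability. Depth limits genes under 10 UMIs in a library, 15810 of 27998, and a count of 0 in enterocytes allows 0.47 and 0.196 CPM.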

Other observations

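Rsad2, an interferon-induced antiviral gene, was the only gene past 2-fold in opposite directions in the 2 libraries. It was at 12.2 and 0.913 CPM in enterocytes and at 1.54 and 3.25 CPM in the other annotated cells. The enterocyte values rest on 78 and 14 UMIs. Cyp4a10, a fatty acid omega-hydroxylase, was at 19.6 and 0.522 CPM in enterocytes, so its level in library 1 had almost no counterpart in library 2. Hnf4a, the factor whose letters were searched in the promoters, had log2 ratios of 0.15 and 0.03. Ribosomal protein genes, which were opposed to the fat absorption genes from cell to cell, summed to 163020 and 147400 CPM in enterocytes and to 199080 and 183600 CPM in the other cells, and none of the 81 measured reached 2-fold.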
